A study of Homo sapiens with 12 samples.

Results

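Serine synthesis and the folate one-carbon pathway are represented here by 10 human enzymes, chosen by gene symbol from a deposited table of 59577 genes. All 10 passed the filter on low values, a mean of at least 1 TPM (a transcript abundance corrected for length and scaled to a common total) over the 12 samples, which 14520 genes passed. The cells were H1299, an established human lung cancer line (non-small cell) that the labels describe as lung adenocarcinoma. In the hyperoxia group (n = 6) the gas was 60% oxygen with 5% CO2 and 35% nitrogen, applied for 24 h. In the normoxia group (n = 6) it was 21% oxygen with 5% CO2 and 74% nitrogen, and both groups were the same line with no genetic change named. Nothing in the labels tells separate cultures from repeat samples of 1 culture. The p-values therefore reflect the spread among these samples alone, and part or all of it may be technical. On the first principal component of the 14520 genes, with 20.7% of the variance, the hyperoxia samples lay between -0.33 and -0.19 and the normoxia samples at positive values, replicates 1 to 3 between 0.09 and 0.16 and replicates 4 to 6 between 0.31 and 0.55. The labels name no batch, so results are also given without either set of 3 normoxia samples where that ends a call.

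Cells make serine from an intermediate of glycolysis in consecutive steps run by PHGDH, PSAT1 and PSPH. The serine hydroxymethyltransferases SHMT1 (cytosol) and SHMT2 (mitochondria) then pass a carbon from serine to tetrahydrofolate and leave glycine. In mitochondria MTHFD2 or MTHFD2L oxidise that carbon and MTHFD1L releases it as formate, while ALDH1L2 oxidises it to CO2 and yields NADPH. In the cytosol the trifunctional MTHFD1 takes formate back onto folate for the synthesis of purines and thymidylate. Many of these genes are known targets of ATF4, the transcription factor of the amino acid and integrated stress responses, and tumour cells often express the mitochondrial enzymes at high levels.

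Of the 10 enzymes 7 fell in hyperoxia, none rose and 3 did not pass the test (limma on log2(TPM + 1), Benjamini-Hochberg adjusted over 14520 genes, threshold 0.05). Over all tested genes 5.63% were called lower and 11.7% higher, 17.3% in all, and the median log2 fold change was 0.03, against -0.28 for the 10 enzymes. The enzymes were chosen with earlier results of these data known, so this comparison describes them and is not a test of the group. The 7 that fell were all 3 enzymes of serine synthesis and 4 of the 5 mitochondrial folate enzymes; neither cytosolic folate enzyme was called. The TPM of the hyperoxia samples all lay below those of the normoxia samples for 3 of the 10 (PHGDH, PSAT1 and MTHFD1L), a pattern shown by 2.58% of all tested genes; in 6.2% all hyperoxia samples lay above, which held for none of the 10. With median-of-ratios scaling 1279 genes were called higher and 1277 lower, against 1698 and 818 as deposited, and 7 enzymes were called lower there too. Without normoxia replicates 1 to 3, and likewise without replicates 4 to 6, 5 enzymes were called lower, and the exact rank-sum test called 6 lower. Of the 14520 genes, 443, 375 and 515 were called lower in these settings, in the same order. At an unadjusted p under 0.05 none of the 10 enzymes was higher in limma. The share of all tested genes under that unadjusted threshold was not counted. None of the enzymes was called higher by the rank-sum test, beside 1203 of the 14520 genes. In these bulk samples fewer cells with a transcript and less of it per cell cannot be told apart.

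**Figure D1:**
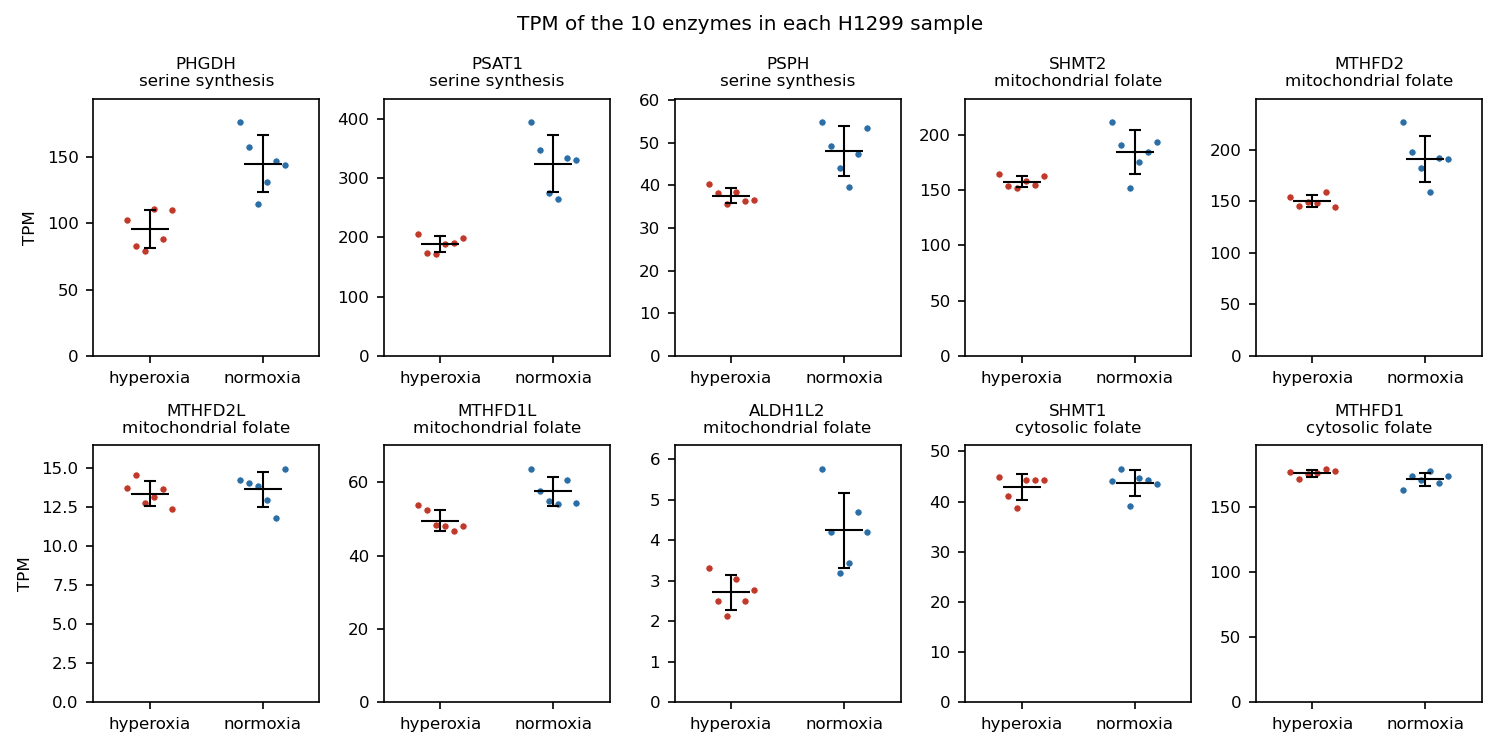
TPM of each enzyme (vertical axes, from 0) in the 6 hyperoxia samples (red, left) and the 6 normoxia samples (blue, right), with the mean and SD in black. The groups separate fully for PHGDH, PSAT1 and MTHFD1L and overlap for the other 7 enzymes.

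The promoter windows of 5 enzymes are printed because several of the enzymes that fell are known as ATF4 targets and ATF4 acts through a C/EBP-ATF response element. Each window runs from 250 bases before to 50 bases after an annotated start in RefSeq (GRCh38.p14), 5′ to 3′ on the strand of the gene, in lower case, with any match to TGATGNAA on either strand in capitals. PSAT1 is the most abundant and PHGDH the first enzyme of serine synthesis, MTHFD2 and MTHFD1L are mitochondrial enzymes that fell, and MTHFD1 is the cytosolic relative of MTHFD1L that was not called. The windows lie at chr1:119711684-119711983 for PHGDH, chr9:78296875-78297174 for PSAT1, chr2:74198365-74198664 for MTHFD2, chr6:150866236-150866535 for MTHFD1L and chr14:64388103-64388402 for MTHFD1, all on the plus strand.
PHGDH: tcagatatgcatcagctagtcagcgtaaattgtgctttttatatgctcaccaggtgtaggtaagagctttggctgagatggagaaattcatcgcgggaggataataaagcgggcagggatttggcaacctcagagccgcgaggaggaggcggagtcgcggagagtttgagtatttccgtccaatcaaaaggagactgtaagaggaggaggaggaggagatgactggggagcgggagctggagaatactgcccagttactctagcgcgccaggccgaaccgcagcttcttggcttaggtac
PSAT1: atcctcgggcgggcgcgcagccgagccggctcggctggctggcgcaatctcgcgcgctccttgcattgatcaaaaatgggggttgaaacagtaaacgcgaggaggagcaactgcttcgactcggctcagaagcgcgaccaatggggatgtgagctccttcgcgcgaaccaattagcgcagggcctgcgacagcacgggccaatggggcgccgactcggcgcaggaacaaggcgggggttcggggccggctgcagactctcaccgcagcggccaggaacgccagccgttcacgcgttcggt
MTHFD2: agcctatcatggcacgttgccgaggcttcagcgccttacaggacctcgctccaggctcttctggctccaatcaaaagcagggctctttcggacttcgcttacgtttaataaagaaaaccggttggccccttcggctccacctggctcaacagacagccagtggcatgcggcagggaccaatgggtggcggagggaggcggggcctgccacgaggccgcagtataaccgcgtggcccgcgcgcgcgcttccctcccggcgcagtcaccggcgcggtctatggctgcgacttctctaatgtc
MTHFD1L: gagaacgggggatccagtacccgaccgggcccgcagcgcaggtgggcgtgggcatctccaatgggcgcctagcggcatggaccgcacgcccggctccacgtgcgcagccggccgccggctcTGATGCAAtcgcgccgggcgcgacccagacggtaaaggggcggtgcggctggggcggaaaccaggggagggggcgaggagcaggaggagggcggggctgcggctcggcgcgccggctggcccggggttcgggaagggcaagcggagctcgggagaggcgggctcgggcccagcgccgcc
MTHFD1: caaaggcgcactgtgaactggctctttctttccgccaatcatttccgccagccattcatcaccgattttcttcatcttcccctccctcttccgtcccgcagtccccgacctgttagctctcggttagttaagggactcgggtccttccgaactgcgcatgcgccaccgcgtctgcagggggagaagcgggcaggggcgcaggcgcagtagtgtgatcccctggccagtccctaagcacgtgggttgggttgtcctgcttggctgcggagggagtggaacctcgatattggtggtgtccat

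RefSeq windows were found for 7 of the 10 enzymes; PSPH, SHMT2 and ALDH1L2 had no window. Of the 7, MTHFD1L alone held a match. It was the same 8 bases, TGATGCAA, starting at chromosome 6 position 150866357, in 3 overlapping windows of its nearby starts, and its more distant start had none. In the printed window the match begins 129 bases before the start. The motif occurs in 3.62% of all 35116 windows, and in at least 1 window of 4.46% of 27305 genes. A match describes the letters only, and the absence of one says that these letters are not in this window.

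Transcripts of every serine synthesis enzyme were lower in hyperoxia, with the largest changes at the first and second steps. Whether enzyme amounts or serine itself changed was not tested. PSAT1 (ENSG00000135069), the aminotransferase of the second step, ranged from 171.84 to 205.68 TPM with a median of 189 in hyperoxia, against 264.36 to 394.38 TPM with a median of 332 in normoxia. Every hyperoxia sample was below every normoxia sample, and the gap between the groups was wider than the range within hyperoxia. Its mean was 188 ± 13.4 TPM in hyperoxia and 324 ± 48.1 TPM in normoxia (SD, n = 6 each), a log2 fold change of -0.77 (95% interval -0.96 to -0.58; limma, Benjamini-Hochberg adjusted p = 7.74e-05). Only 1.03% of tested genes had a lower fold change.

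PHGDH (ENSG00000092621), the dehydrogenase that commits carbon to serine, ranged from 78.72 to 110.93 TPM (median 95.3) in hyperoxia, against 114.42 to 176.09 TPM (median 145) in normoxia. The groups did not overlap, although the highest hyperoxia sample and the lowest normoxia sample were close. The mean was 95.5 ± 14.1 TPM in hyperoxia and 144.9 ± 21.2 TPM in normoxia (SD, n = 6 each), a log2 fold change of -0.60 (95% interval -0.83 to -0.36; limma, Benjamini-Hochberg adjusted p = 0.00257). PHGDH thus fell by 34.1% and PSAT1 fell by 41.9% in mean TPM.

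PSPH (ENSG00000146733), the phosphatase that releases serine in the last step, ranged from 35.57 to 40.39 TPM (median 37.4) in hyperoxia, against 39.5 to 54.8 TPM (median 48.3) in normoxia. In 5 of 6 hyperoxia samples it was below the lowest normoxia sample, and the sixth overlapped. The log2 fold change was -0.34 (SE 0.07, limma, Benjamini-Hochberg adjusted p = 0.00547). Without normoxia replicates 1 to 3 it was -0.30 (limma, Benjamini-Hochberg adjusted p = 0.0555), which ended the call. Summed over the 3 enzymes, the level was 321 ± 26.8 TPM in hyperoxia and 517 ± 73.5 TPM in normoxia (SD, n = 6 each).

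**Figure D2:**
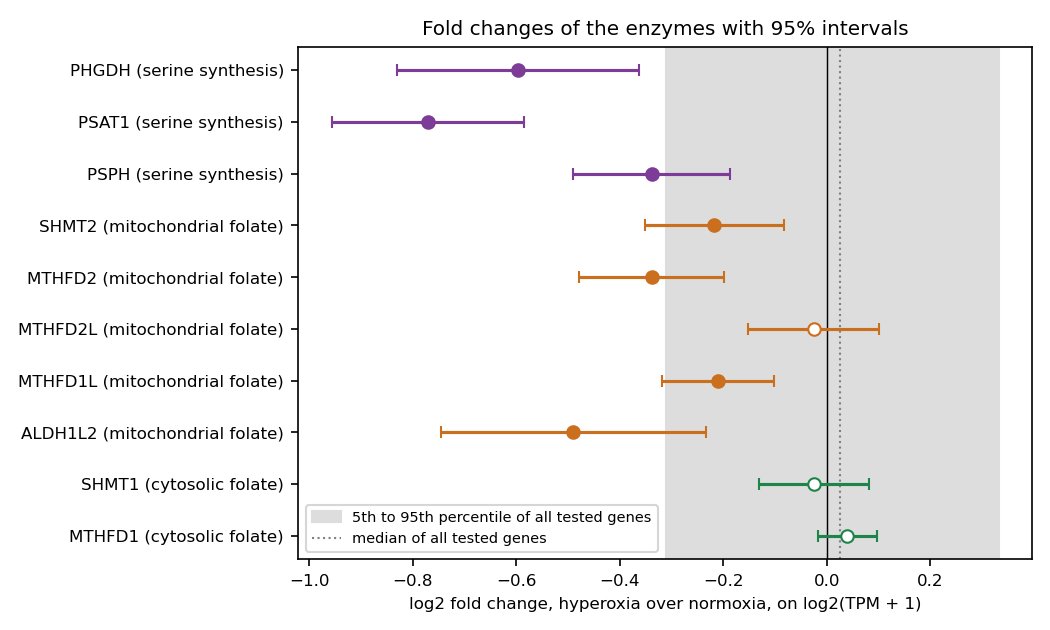
Log2 fold change of each enzyme, hyperoxia over normoxia, on the log2(TPM + 1) scale (horizontal axis), with its 95% interval from limma; filled points passed the test. The grey band spans the 5th to 95th percentile of all tested genes; PSAT1, PHGDH, ALDH1L2, MTHFD2 and PSPH lie left of it at -0.77, -0.60, -0.49, -0.34 and -0.34.

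In the mitochondrial arm, MTHFD2 (ENSG00000065911), the NAD-dependent dehydrogenase and cyclohydrolase, ranged from 144.68 to 159.21 TPM (median 149) in hyperoxia, against 158.54 to 226.62 TPM (median 191) in normoxia. The hyperoxia samples lay close together, and 1 of them overlapped the lowest normoxia sample. The log2 fold change was -0.34 (SE 0.06, limma, Benjamini-Hochberg adjusted p = 0.00346). Its paralogue MTHFD2L (ENSG00000163738), which catalyses the same steps, ranged from 12.38 to 14.56 TPM in hyperoxia, against 11.81 to 14.96 TPM in normoxia, so that the hyperoxia range fell inside that of normoxia. Its log2 fold change was -0.03 with a 95% interval of -0.15 to 0.10 (limma, Benjamini-Hochberg adjusted p = 0.818).

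SHMT2 (ENSG00000182199), which feeds the mitochondrial arm from serine, ranged from 151.98 to 164.82 TPM (median 157) in hyperoxia, against 151.85 to 211.46 TPM (median 188) in normoxia. The lowest sample of all was normoxia replicate 3, while the other normoxia samples lay above every hyperoxia sample. The log2 fold change was -0.22 (SE 0.06, limma, Benjamini-Hochberg adjusted p = 0.029), and this was the least stable of the 7 calls. It was lost in 10 of 26 alternatives. One was the exact rank-sum test (Benjamini-Hochberg adjusted p = 0.204) and another the fit without a filter on low values (0.0763). It was also lost when hyperoxia replicate 2, 3 or 5 or normoxia replicate 1, 2, 5 or 6 was left out; without normoxia replicate 1 the log2 fold change was -0.18 (limma, Benjamini-Hochberg adjusted p = 0.0535). Without normoxia replicates 4 to 6 it was -0.21 (adjusted p = 0.15 in the same test).

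MTHFD1L (ENSG00000120254), the formate-releasing synthetase, ranged from 46.75 to 53.72 TPM (median 48.3) in hyperoxia, against 54.17 to 63.72 TPM (median 56.3) in normoxia. The groups did not overlap, with a narrow gap between them. The log2 fold change was -0.21 (SE 0.05, limma, Benjamini-Hochberg adjusted p = 0.0118), and without normoxia replicates 1 to 3 it was -0.18 (adjusted p = 0.0823 in the same test), which did not pass. In the authors' deposited table its log2 fold change was -0.38, while the log2 ratio of the mean deposited TPM was -0.22, a gap of -0.17. Only 5.61% of 14347 genes showed a gap lower than this, the median gap being -0.02, and the cause was not tested. The other 9 enzymes had gaps between -0.07 and 0.03.

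ALDH1L2 (ENSG00000136010), the formyl-tetrahydrofolate dehydrogenase, was the least abundant of the 10, at 2.14 to 3.31 TPM (median 2.64) in hyperoxia, against 3.19 to 5.77 TPM (median 4.22) in normoxia. In 5 of 6 hyperoxia samples it was below the lowest normoxia sample. Its mean fell by 36.2%, and its log2 fold change was -0.49 (SE 0.12, limma, Benjamini-Hochberg adjusted p = 0.0132), which the pseudocount of 1 makes smaller than the ratio of the means. Without normoxia replicates 4 to 6 the call was lost (limma, Benjamini-Hochberg adjusted p = 0.0667). A gene on the opposite strand, C12orf45, overlaps ALDH1L2 in GENCODE 29 and averaged 18.2 TPM in hyperoxia and 17.8 TPM in normoxia. Since the sources differ on the library kit, whether reads were assigned by strand is not known.

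The cytosolic enzymes showed small differences. SHMT1 (ENSG00000176974), the cytosolic counterpart of SHMT2, ranged from 38.64 to 44.9 TPM (median 44.3) in hyperoxia, against 39.04 to 46.53 TPM (median 44.2) in normoxia. The ranges largely coincided, and the log2 fold change was -0.02 with a 95% interval of -0.13 to 0.08 (limma, Benjamini-Hochberg adjusted p = 0.781). MTHFD1 (ENSG00000100714) ranged from 171.58 to 179.58 TPM (median 177) in hyperoxia, against 163.03 to 177.72 TPM (median 173) in normoxia, so that the groups overlapped, and 1 of 6 hyperoxia samples was below the normoxia median. Its log2 fold change was 0.04 with a 95% interval of -0.02 to 0.10 (limma, Benjamini-Hochberg adjusted p = 0.335). The intervals of both cytosolic enzymes leave out -0.21, the smallest change among the 7 enzymes called. SMCR8, which overlaps SHMT1 on the opposite strand in GENCODE 29, averaged 15.1 TPM in hyperoxia and 11.97 TPM in normoxia.

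Whether related enzymes changed unequally was tested by their ratio within each sample, for 3 pairs of a mitochondrial and a cytosolic enzyme and for the mitochondrial paralogues MTHFD2 and MTHFD2L. A ratio within a sample does not depend on the scaling of that sample. The log2 values of 4 ratios were compared by exact permutation (two-sided, 924 arrangements of the samples), with Benjamini-Hochberg adjustment over the 4. SHMT2 over SHMT1 was 3.68 ± 0.15 in hyperoxia and 4.22 ± 0.35 in normoxia (SD, n = 6 each), a log2 difference of -0.19 (SE 0.05, exact p = 0.00649, adjusted p = 0.00649). In 5 of 6 hyperoxia samples the ratio was below the lowest normoxia ratio.

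MTHFD1L over MTHFD1 was 0.282 ± 0.019 in hyperoxia and 0.337 ± 0.033 in normoxia (SD, n = 6 each), a log2 difference of -0.26 (SE 0.07, exact p = 0.00433, adjusted p = 0.00577). MTHFD2 over MTHFD2L was 11.3 ± 0.65 in hyperoxia and 14.1 ± 1.69 in normoxia (SD, n = 6 each), a log2 difference of -0.31 (SE 0.08, exact p = 0.00216, adjusted p = 0.00433). MTHFD2 over MTHFD1 was 0.852 ± 0.025 in hyperoxia and 1.12 ± 0.16 in normoxia (SD, n = 6 each), a log2 difference of -0.38 (SE 0.09, exact p = 0.00216, adjusted p = 0.00433). For both ratios with MTHFD2 every hyperoxia sample lay below every normoxia sample, and 0.00216 is the smallest p these permutations can give. All 4 ratios were lower in hyperoxia and passed the threshold. They are not separate results, since MTHFD2 and MTHFD1 each recur and every ratio sets an enzyme called lower over another not called. How often ratios of other gene pairs separate the groups was not counted.

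**Figure D3:**
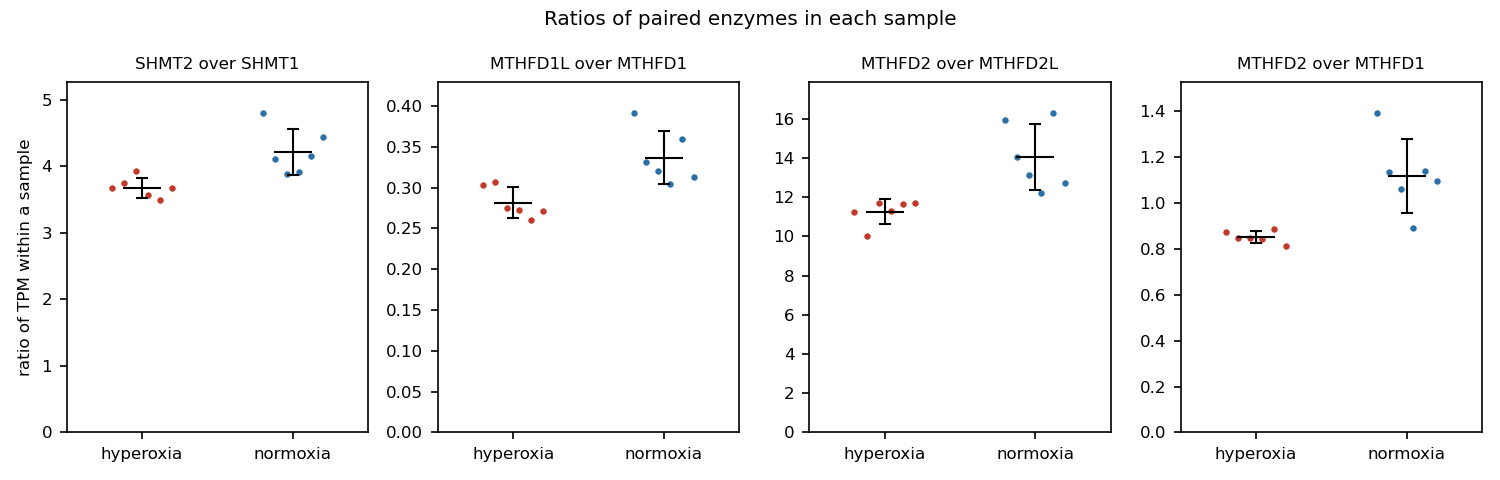
Ratio of the TPM of paired enzymes within each sample (vertical axes, from 0), with hyperoxia in red on the left, normoxia in blue on the right, and the mean and SD in black. MTHFD2 over MTHFD1 centres at 0.852 in hyperoxia and 1.12 in normoxia, and both ratios with MTHFD2 separate the groups fully.

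TPM is corrected for length, so the levels of the enzymes are set beside each other here. The annotation and TPM formula are not given, so the order and the sums of enzymes rest on lengths that were not checked. PSAT1 ranked highest in both groups, at 188 TPM in hyperoxia and 324 TPM in normoxia. In hyperoxia its range overlapped that of MTHFD1, the next in order at 176 ± 2.69 TPM, whereas in normoxia its range lay apart from the next enzyme, MTHFD2. The order below it also differed: in hyperoxia MTHFD1, SHMT2, MTHFD2 and PHGDH followed, with overlap between SHMT2 and MTHFD2 only, while in normoxia MTHFD2, SHMT2, MTHFD1 and PHGDH followed with overlap between each and its neighbour. MTHFD1L, SHMT1 and PSPH came next at 37.6 to 49.6 TPM in hyperoxia and 43.7 to 57.6 TPM in normoxia, and MTHFD2L and ALDH1L2 were last in both groups. The 5 mitochondrial enzymes together summed to 374 ± 8.86 TPM in hyperoxia and 451 ± 43.6 TPM in normoxia (SD, n = 6 each). The 2 cytosolic enzymes summed to 219 ± 4.62 TPM in hyperoxia and 215 ± 6.05 TPM in normoxia (SD, n = 6 each).

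The 7 enzymes that fell varied together among the normoxia samples, while among the hyperoxia samples some pairs did not. Normoxia replicate 1 had the highest TPM of all 12 samples for each of the 7, and the lowest normoxia sample was replicate 3 for 3 of them and replicate 4 for the other 4. Over deviations from the group means of log2(TPM + 1) in the 12 samples, the 21 pairs among the 7 had Pearson correlations between 0.41 and 0.91 with a median of 0.72; the pair with the highest was PSAT1 and ALDH1L2. Among the 6 hyperoxia samples alone the same 21 pairs ranged from -0.15 to 0.94 (median 0.45), with 4 below 0, and among the 6 normoxia samples alone from 0.56 to 0.96 (median 0.86). The 24 pairs that include MTHFD2L, SHMT1 or MTHFD1 ranged from -0.77 to 0.76 with a median of 0.11. These correlations describe samples that share their libraries and scaling, and are given without a test.

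For 6 of the 7 the coefficient of variation was wider in normoxia: that of PSAT1 was 7.1% in hyperoxia and 14.8% in normoxia, and that of SHMT2 was 3.26% in hyperoxia and 10.8% in normoxia. The exception was PHGDH, at 14.8% in hyperoxia and 14.7% in normoxia. Among 8455 genes of at least 10 TPM, 53.3% had the wider variation in normoxia, with medians of 6.88% in hyperoxia and 7.28% in normoxia. ALDH1L2, among the 6, lies below 10 TPM and so outside this background. Without normoxia replicate 1, PSAT1 and PHGDH kept their calls, as they did in all 26 alternatives.

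**Figure D4:**
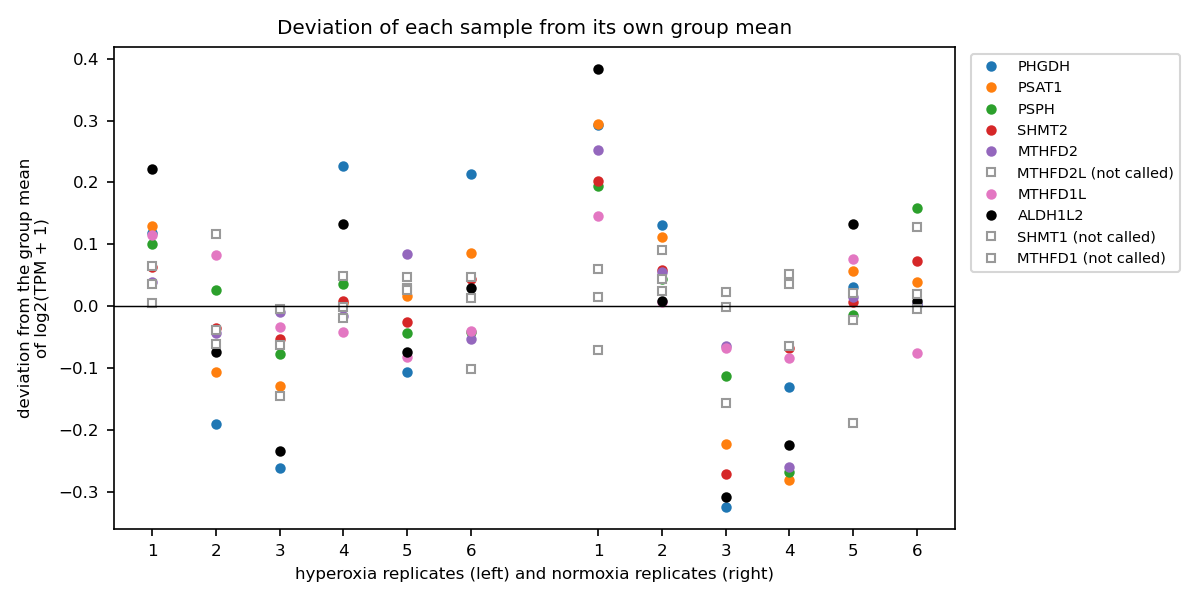
Deviation of each sample from the mean of its own group on the log2(TPM + 1) scale (vertical axis), by replicate number within hyperoxia (left) and normoxia (right); filled circles are the 7 enzymes called lower and open squares the other 3. The 7 circles all lie above 0 in normoxia replicate 1 and below 0 in normoxia replicates 3 and 4.

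The 5 genes outside the 10 enzymes whose deviations from the group means were most like those of PSAT1 over the 12 samples were CHAC1 (Pearson r = 0.98), SLC31A1 (0.96), CARS1 (0.95), SLC7A5 (0.94) and XBP1 (0.94). The 99th percentile over 14510 genes was 0.77 and the median 0.14. CHAC1, a glutathione-degrading enzyme, averaged 22.8 ± 2.79 TPM in hyperoxia and 72.5 ± 17.6 TPM in normoxia (SD, n = 6 each). CARS1, the cytosolic cysteinyl-tRNA synthetase, had a log2 fold change of -0.39 with an SE of 0.07 (adjusted p = 0.00158, limma with Benjamini-Hochberg adjustment). SLC31A1, a copper importer, averaged 17.8 ± 0.97 TPM in hyperoxia and 19.9 ± 1.92 TPM in normoxia (limma, Benjamini-Hochberg adjusted p = 0.126), and it was called lower under each of the 3 other scalings. SLC7A5, a large neutral amino acid transporter, and XBP1, a factor of the unfolded protein response, fell by 0.72 and 0.35 on the log2 scale.

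ATF4, the 4 kinases upstream of it and classic targets outside the 10 enzymes formed a list of 13 genes, of which 6 fell, none rose and 7 did not pass, with a median log2 fold change of -0.16. Among all tested genes limma called 5.63% lower and 11.7% higher. At an unadjusted p under 0.05, 2 of the list were higher, a count with no share of all genes beside it. The exact rank-sum test called 4 of the list lower and none higher. The rank-sum test called 515 of 14520 genes lower and 1203 higher. ATF4 (ENSG00000128272) itself ranged from 222.59 to 254.27 TPM in hyperoxia, against 243.36 to 297.78 TPM in normoxia, with overlap. Its log2 fold change was -0.19 (SE 0.05, limma, Benjamini-Hochberg adjusted p = 0.0237). That call was lost in 6 of 26 alternatives, among them the fits without hyperoxia replicate 2 (adjusted p = 0.0534 in the same test) and without normoxia replicate 5 (0.0527). Without normoxia replicates 1 to 3 the adjusted p was 0.069, and without replicates 4 to 6 it was 0.0838 (limma). The others that fell were CHAC1 at -1.60, SESN2, a stress-induced sestrin, at -0.81, ASNS, the asparagine synthetase, at -0.69, and CEBPG, a partner of ATF4, at -0.31. The sixth, CEBPB, chosen after its values were seen, had a log2 fold change of -0.27 and lost its call in 14 of 26 alternatives, most of them fits that left out 1 sample. Without normoxia replicates 1 to 3 its log2 fold change was -0.099 (limma, Benjamini-Hochberg adjusted p = 0.432). The 4 kinases that phosphorylate eIF2 alpha and so raise ATF4 translation (EIF2AK1 to EIF2AK4, chosen after their values were seen) were not called, with log2 fold changes between -0.13 and 0.19. DDIT3, TRIB3 and ATF3, also chosen after their values were seen, were not called either. Their log2 fold changes were -0.16, -0.07 and 0.40 (limma, Benjamini-Hochberg adjusted p = 0.41, 0.766 and 0.0542). ATF3 was among the 2 higher at an unadjusted p under 0.05.

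Of 5 genes of glycine cleavage and formation none was called by limma or the exact rank-sum test, with a median log2 fold change of 0.05; at an unadjusted p under 0.05, 1 was higher and 1 lower. GLDC, the glycine decarboxylase, averaged 39.7 ± 3.39 TPM in hyperoxia and 45.9 ± 6.83 TPM in normoxia (SD, n = 6 each; limma, Benjamini-Hochberg adjusted p = 0.147). The folate cycle with folate transport and storage made a list of 14 genes, of which 12 were tested and none was called by limma or the exact rank-sum test, with a median of -0.03. At an unadjusted p under 0.05, 2 were higher and 1 was lower. Among all 14520 tested genes limma called 5.63% lower and 11.7% higher, and the rank-sum test called 515 genes lower and 1203 higher. The share of all genes at the unadjusted threshold was not counted, so the unadjusted counts of both lists have no background. SLC25A32, the mitochondrial folate carrier, had a log2 fold change of 0.18 (limma, Benjamini-Hochberg adjusted p = 0.0669).

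Of 13 methionine cycle genes 8 were tested, of which 1 rose, 1 fell and 6 did not pass (median 0.02). Among all tested genes 17.3% were called, so the few calls in this list and in purine synthesis do not set these lists apart. MAT2A, which makes S-adenosylmethionine, averaged 165 ± 9.65 TPM in hyperoxia and 192 ± 9.60 TPM in normoxia (SD, n = 6 each), a log2 fold change of -0.21 (SE 0.04, limma, Benjamini-Hochberg adjusted p = 0.00504). AHCYL1, a relative of the adenosylhomocysteinase, rose by 0.26 (SE 0.06). Both lost their calls without normoxia replicates 4 to 6 (limma, Benjamini-Hochberg adjusted p = 0.055 and 0.0833). Purine synthesis uses formyl groups carried by folate; of its 6 genes ADSL fell by 0.25 (SE 0.04), PAICS rose by 0.14 (SE 0.03) and 4 did not pass; PAICS was not called with median-of-ratios scaling (limma, Benjamini-Hochberg adjusted p = 0.0916), without normoxia replicates 1 to 3 (0.0685) or without replicates 4 to 6 (0.052).

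The list for serine transport and use held 15 genes. Of these 13 were tested, of which 4 fell, 1 rose and 8 did not pass, beside 5.63% lower and 11.7% higher among all tested genes. CBS, which joins serine to homocysteine at the start of transsulfuration, averaged 71.5 ± 9.56 TPM in hyperoxia and 102 ± 15.1 TPM in normoxia (SD, n = 6 each), a log2 fold change of -0.51 (SE 0.10, limma, Benjamini-Hochberg adjusted p = 0.00441). SLC6A9, a glycine transporter chosen after its values were seen, had a log2 fold change of -0.55 (SE 0.12). Its levels were low, at 1.11 to 2.25 TPM in hyperoxia and 2.26 to 3.58 TPM in normoxia. At such levels the pseudocount of 1 makes the fold change smaller than the ratio of the means. Without normoxia replicates 1 to 3 SLC6A9 did not pass (limma, Benjamini-Hochberg adjusted p = 0.0823). SPTLC1, a subunit of the enzyme that joins serine to palmitate, rose by 0.18 (SE 0.04), a call lost with median-of-ratios scaling (limma, Benjamini-Hochberg adjusted p = 0.0502) and without normoxia replicates 4 to 6 (0.0677). The neutral amino acid transporters SLC1A4 and SLC1A5 made up the other 2 called lower, but for both the deposited group means, or the fold change and its log2, disagree with each other. SLC1A4 also did not pass without normoxia replicates 1 to 3 (limma, Benjamini-Hochberg adjusted p = 0.0591). Without both transporters 2 of 11 fell. Of 2 other factors described as regulators of serine synthesis genes 1 was called lower, MYC at -1.31, and its deposited values disagree in the same way.

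**Figure D5:**
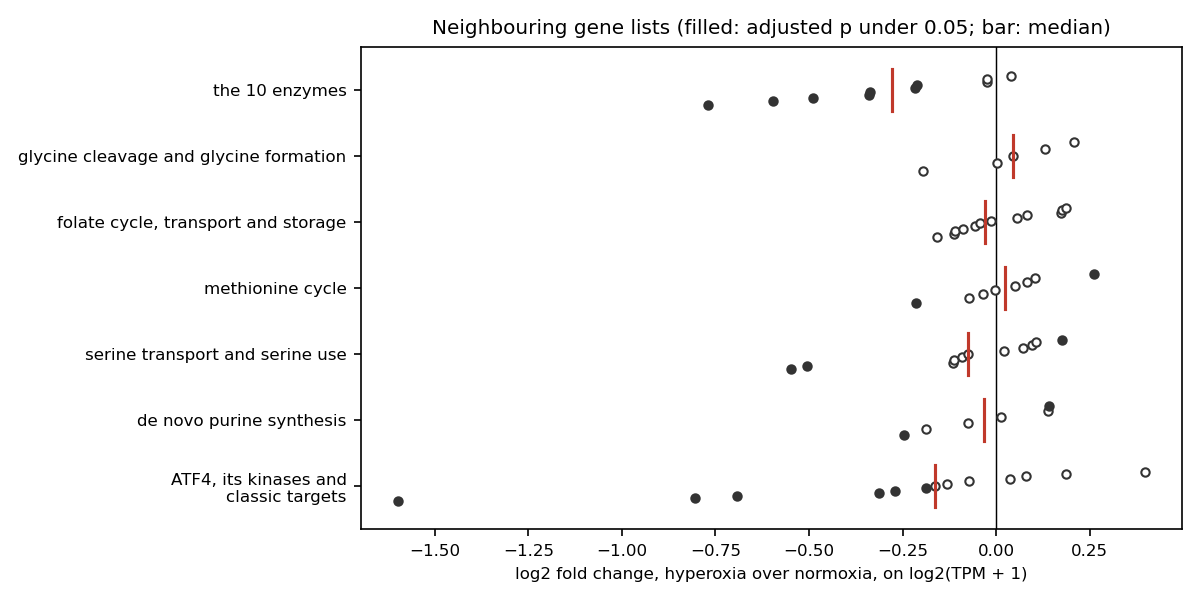
Log2 fold change, hyperoxia over normoxia, on the log2(TPM + 1) scale (horizontal axis) of the 10 enzymes and of the tested genes of 6 neighbouring lists, leaving out genes whose deposited values disagree; filled points passed the test and red bars are medians. The medians are -0.28 for the 10 enzymes, -0.16 for the ATF4 list and between -0.08 and 0.05 for the others.

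In the authors' deposited table none of the 10 enzymes carries the call of a changed gene, which 1.1% of the genes they tested carry; the smallest size of a log2 fold change among those called was 1.00. The same 7 enzymes had an adjusted p under 0.05 in the authors' deposited table, from 5.66e-28 for PSAT1 to 8.49e-06 for ALDH1L2. The share of all genes under that threshold there was not counted, so this count of enzymes has no background beside it. None of the 10 is among the 78 genes whose deposited values disagree. Near-identical copies could take reads from the enzymes: 14 pseudogenes named after 5 of them were listed, none above 0.43 TPM in any sample. These values do not show whether reads shared with a copy were left out of the counts, which was not tested.

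Each sample summed to between 996138 and 998797 TPM, and since TPM does not retain sequencing depth, depth is unknown and counting intervals cannot be given. TMM factors ranged from 0.937 in normoxia replicate 3 to 1.04 in hyperoxia replicate 6. The epithelial keratins KRT8 and KRT18 were high, EPCAM and CDH1 stayed at or below 0.28 TPM, and the mesenchymal VIM lay between 2750 and 3523 TPM. The 4 lung lineage genes NKX2-1, NAPSA, SFTPB and SFTPC stayed at or below 0.78 TPM in every sample, so these markers of lung were absent or near 0. Of the leukocyte markers PTPRC and CD3E were at or near 0 (at most 0.03 TPM), and the lysosomal gene CD68 summed with them to 39.2 to 50.8 TPM in hyperoxia and 39.4 to 50.2 TPM in normoxia. The endothelial and fibroblast lists did not exceed 1.95 TPM.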

How the data were processed

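Expression was measured by RNA sequencing in 12 samples of H1299 cells. HTSeq 0.9.1 served for counting and edgeR 3.16.5 for normalisation, per the submitters' processing notes, which also list build mm9, although the identifiers are human Ensembl ones. Which aligner, annotation and TPM formula were used is not given in the sources used here. A TruSeq kit is named in the labels, and a directional kit with removal of ribosomal RNA in the design text, so the library type is not known. Each sample has 1 column of TPM in the deposited table, which is itself named for FPKM. Beside them the authors deposited a fold change (a linear ratio) with its log2, and a p-value and adjusted p-value per gene. Rows were checked for agreement of these values within 1e-06 (log2) and 1e-04 TPM; 78 genes failed.

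Genes with a mean of at least 1 TPM were tested with limma 3.58.1 in R 4.3.3 (lmFit, eBayes with trend, two-sided) on log2(TPM + 1), with p-values adjusted by Benjamini-Hochberg over 14520 genes (threshold 0.05). Ratios were tested on the log2 scale by exact permutation in Python 3.11.15. Fits were tested on simulated data. The enzymes and lists were chosen with earlier results of these data known. By rule the text names all 10 enzymes, at most 4 genes per list with the smallest p, ATF4, and the 5 genes most like PSAT1; others are marked as chosen after their values were seen. The planned limma test, written for another normalised unit, was kept for TPM. Alternatives were other pseudocounts, filters, scalings, variance models, tests, a replicate block and left-out samples. Replicate numbers were not taken as pairs. The depth of the samples is unknown. Some items of the gene lists and marker checks are not reported here.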

Additional observations from a re-analysis of the deposited data

Results flagged for a closer look

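In 76 groups of 6 samples the gap of the most extreme sample to its neighbour was set against the range of the group, and 4 samples stood out; chance gives about 1 group in 20. The ratio of MTHFD2 over MTHFD2L was 10.01 in hyperoxia replicate 2, the next lowest hyperoxia sample being at 11.2. SLC25A32 reached 33.18 TPM in normoxia replicate 6, with the next at 29.04 TPM. Without that sample its log2 fold change was 0.21 and it was called higher (limma, Benjamini-Hochberg adjusted p = 0.0257). Leaving out the highest normoxia sample can only raise this value. In 24 of 26 alternatives SLC25A32 was not called, and its log2 fold change went down to 0.12. PAICS was at 142.8 TPM in normoxia replicate 4, with the next at 152.52 TPM. SLC1A4, whose deposited values disagree, reached 17.8 TPM in normoxia replicate 1, with the next at 14.57 TPM.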

How the results depend on the processing

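Over 26 alternatives to the fit across genes, 5 to 7 of the 10 enzymes were called lower (6 to 7 when 1 sample was left out) and none higher. PHGDH, PSAT1 and MTHFD2 were called lower in all 26. Over all genes, 788 were called higher and 443 lower without normoxia replicates 1 to 3, and 1000 higher and 375 lower without normoxia replicates 4 to 6, fits with fewer samples. The number lower was 1260 with TMM scaling, 1277 with median-of-ratios scaling and 515 with the exact rank-sum test. Leaving out 1 sample gave 1330 to 1558 higher and 602 to 934 lower. Log2 fold changes near 0 turned positive in a few settings. That of MTHFD2L did so without normoxia replicate 6 (0.000353, range when 1 sample was left out -0.0631 to 0.000353) and without normoxia replicates 1 to 3 (0.017). That of SHMT1 did so without hyperoxia replicate 3 (0.00422, range when 1 sample was left out -0.0563 to 0.00422). The value beside the rank-sum test is a difference of group medians of log2(TPM + 1), not of means. For SHMT1 it was 0.00415. Same-numbered samples had correlations of deviations between -0.12 and 0.02. With the replicate number as a block 7 enzymes were lower, beside 889 of all tested genes. With that pairing SHMT2 over SHMT1 kept its log2 difference of -0.19 with an adjusted p of 0.0625 in the paired exact sign-flip test. The other ratios passed in all 16 of their alternatives; the cause of these shifts was not tested. Unknown depth limits the precision stated for ALDH1L2.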
